A study of Homo sapiens with 9 samples.

Results

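The genes described here are MYC, its partner MAX, and 40 genes for nucleolar proteins, ribosome assembly factors and RNA polymerase I factors. They were chosen by name, 42 in all, of the 58096 gene IDs in the deposited count files. All 42 matched an ID, and all 42 were among the 16072 genes that passed the filter on low counts. The cells were ALL-SIL, an established line from a T-cell leukaemia, and total RNA was taken 24 h after electroporation of an siRNA. The 3 groups were a non-targeting scrambled siRNA, labelled with a dose of 400 nM, and the siRNAs s46 and s47 against TLX1, for which the labels give no dose. Each group had 3 libraries. The labels are silent on whether a group's replicates were grown or electroporated apart; the tests thus rest on variation among these 9 libraries, which may be technical.

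MYC is a transcription factor that pairs with MAX and binds the DNA word CACGTG, called an E-box. It is known for raising the output of ribosomes. RNA polymerase I transcribes the ribosomal RNA precursor in the nucleolus, small nucleolar ribonucleoproteins (snoRNPs) modify that precursor, and a long series of assembly factors builds it into the small and large subunits. In T-cell leukaemia MYC is a well-known driver of growth.

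TLX1, the targeted homeobox factor, was measured first. On the CPM scale (counts relative to library size, after scaling by the trimmed mean of M-values), its level was 171.3 to 198.1 with scrambled siRNA and 63.5 to 87.3 in the 6 TLX1 siRNA libraries. It fell by 1.34 on the log2 scale for the mean of both siRNAs (SE 0.11, edgeR adjusted p 0.000394), so the cells kept part of it. Sense gene reads were 21134650 to 33393740 per library. Scrambled replicate 1 stood apart: 14.45% of its reads mapped to several places and 39.92% fell in genes, against 6.36% to 7.33% and 52.6% to 59.9% in the other 8 libraries. Results are therefore given with and without it. All 10 T-cell markers listed were present, at a summed 2365 to 2373 CPM of library total with scrambled siRNA and 1955 to 2147 with TLX1 siRNA, TLX1 included. By edgeR only TLX1 was called among the 10, and 6 had an unadjusted p under 0.05 (60%, against 17.8% of all genes). Of the 10, 4 were above 0 and 6 below. Without scrambled replicate 1 edgeR called 2 of the 10 lower, TLX1 among them (0.666% of all genes were called). In that setting 6 had an unadjusted p under 0.05 (60%, against 8.62% of all genes), and 5 were above 0 and 5 below. Myeloid, erythroid, and epithelial and fibroblast markers summed to at most 0.335 CPM in any library. B-cell markers summed to 10.2 to 14.3 CPM, with CD22 at 0.

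The E-box was looked for in the RefSeq promoter windows (GRCh38.p14), which run from 250 bases before to 50 bases after a gene's start. Of the 42 members 34 had an entry; MYC, TCOF1, NOLC1, NOP58, RRP12, BOP1, RRP1B and RRS1 had none. CACGTG, which reads the same on both strands, was present for 15 of the 34 (44.1%), against 12.7% of 8906 tested protein-coding genes. The 15 promoters hold 16 E-boxes, of which 11 begin 0 to 35 bases after the start and 3 begin 1 to 16 bases before it. The sites shown belong to 5 members with the highest or lowest fold change of their role (WDR43, LYAR, NOC3L, FBL and UTP4) and to GNL3 and GNL2, whose 95% intervals of the fold change lay above 0. The E-box is in capitals, with its flanks in lower case on the gene's strand.
WDR43: cgcacggacgaaCACGTGgctgcagcgggg
GNL3: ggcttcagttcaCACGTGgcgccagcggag
LYAR: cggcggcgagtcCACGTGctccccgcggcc
GNL2: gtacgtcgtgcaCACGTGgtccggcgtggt
NOC3L: tagggacttcggCACGTGtgtcattccccg
FBL: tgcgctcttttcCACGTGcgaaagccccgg
UTP4: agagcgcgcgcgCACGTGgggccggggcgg

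These windows lie at chr2:28894658-28894687 (WDR43), chr3:52686026-52686055 (GNL3), chr4:4290068-4290097 (LYAR), chr1:37595917-37595946 (GNL2), chr10:94362903-94362932 (NOC3L), chr19:39846356-39846385 (FBL) and chr16:69132621-69132650 (UTP4). WDR43, GNL3 and UTP4 are on the plus strand and the other 4 on the minus strand. The E-box begins 3 bases after the start in WDR43 and GNL2, 6 bases after it in GNL3 and FBL, and 19 in NOC3L. It begins 16 bases before the start in UTP4 and 64 before it in LYAR. A match of these letters is a description of the promoter and does not show that MYC binds there.

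With scrambled siRNA, the members' length-scaled levels ran from 2.6 CPM per kb of merged exon for PPAN to 258.7 for NPM1, the abundant nucleolar chaperone nucleophosmin. NCL, the nucleolar RNA-binding protein nucleolin, stood at 101.2 CPM per kb and MYC at 98.6. Their ranges over the 3 scrambled libraries overlapped, so their order is not resolved, and the ranges overlapped for 39 of the 41 neighbouring pairs in the order of the 42 levels. NOLC1, a phosphoprotein chaperone of snoRNPs, and GNL3, the GTPase nucleostemin, followed at 71.3 and 70.9. The snoRNP proteins NOP58, FBL and NOP56 lay at 58.6, 54.4 and 51.8. The largest subunit of RNA polymerase I, POLR1A, was at 9.37, and MAX at 22.7, below MYC in the scrambled means. NPM1 has 45 annotated pseudogenes of its name, and the files list reads that mapped to several places apart from the genes, so its level can be an underestimate. PPAN shares its locus with a readthrough transcript and P2RY11, and UTP4, RRP12 and WDR74 also overlap a gene on their strand; the files list ambiguous reads apart, so those levels are uncertain too.

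**Figure D1:**
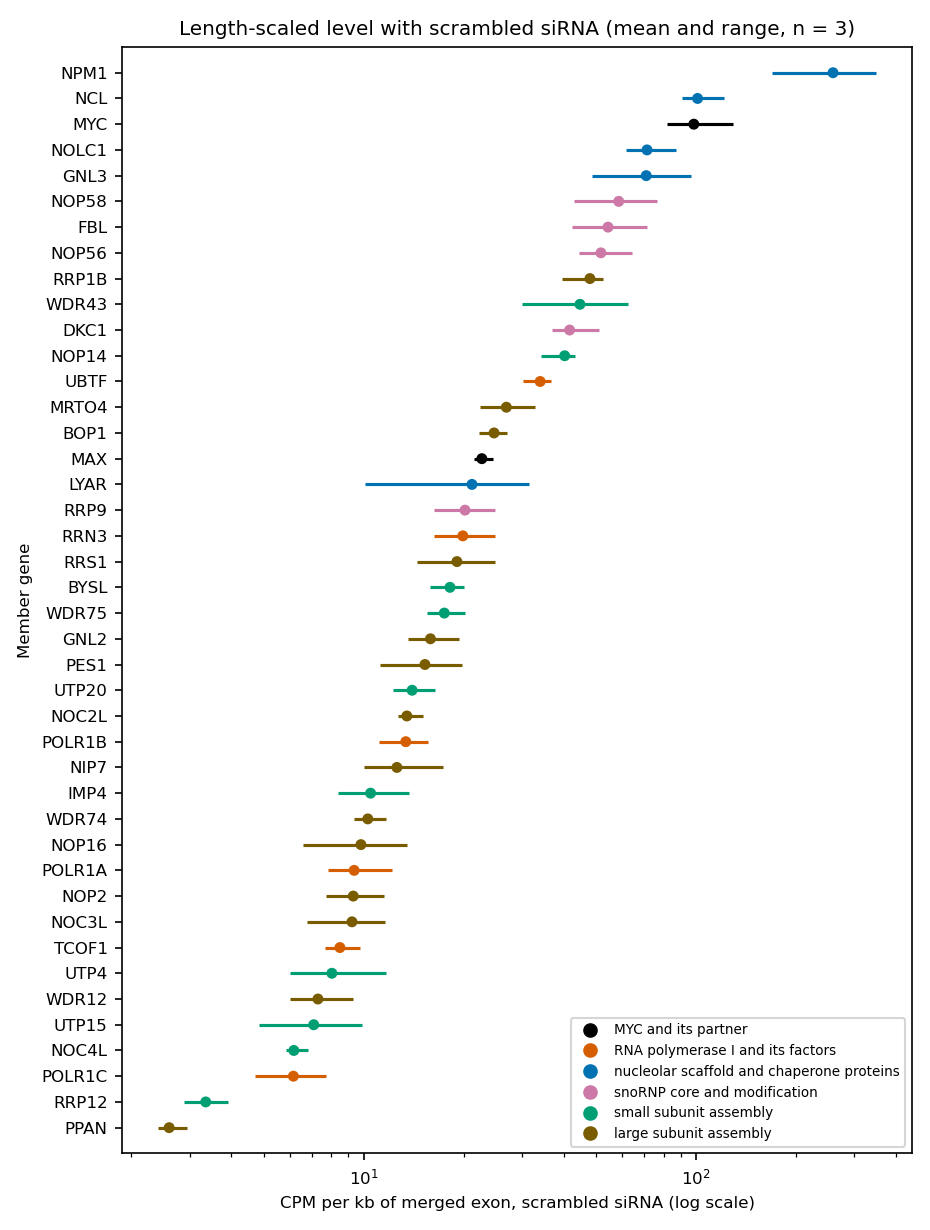
Length-scaled level of each member with scrambled siRNA, in CPM per kb of merged exon on a log axis; points are means and lines the range over 3 libraries, coloured by role. NPM1 is at the top and PPAN at the bottom, and 39 of 41 neighbouring pairs have overlapping ranges.

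The comparison of both TLX1 siRNAs with scrambled siRNA asks which of these transcripts differ when TLX1 is reduced. No member passed the threshold (0 of 42 at an edgeR adjusted p under 0.05, with 0.566% of all tested genes called). The direction was shared by most of them: 37 of 42 log2 fold changes were above 0, against 46.5% of all genes, with a median of 0.19 against -0.03 over all genes. At an unadjusted p under 0.05 there were 8 members (19.0%), near the 17.8% of all genes. DESeq2 called 1 member, NCL (adjusted p 0.0227, with 2.85% of all genes called), and edgeR without the filter on low counts called NCL and WDR43 (adjusted p 0.0472 and 0.00279, with 2.8% of all genes called). Differences were small: the 95% interval of the log2 fold change lay inside -1 to 1 for 41 of 42 members, the exception being LYAR. In bulk RNA, fewer cells of a type and less RNA per cell cannot be told apart.

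The scrambled libraries differed among themselves. The summed level of the 42 members was 5107, 7172 and 5388 CPM in scrambled replicates 1, 2 and 3. It was 6870, 7762 and 6825 CPM with s46 and 7154, 7355 and 6896 CPM with s47. Scrambled replicates 1 and 3 were the lowest of the 9 libraries, and scrambled replicate 2 lay among the siRNA libraries. The typical member, as the median log2 distance from its own mean over the 9 libraries, stood at -0.33, 0.13 and -0.25 in those 3 scrambled libraries. It was 0.01, 0.25 and 0.01 with s46 and 0.04, 0.15 and 0.00 with s47.

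Without scrambled replicate 1 the median log2 fold change was 0.11, 40 of 42 members were above 0 (48.3% of all genes) and 0 were called (0.666% of all genes). The lowest adjusted p was then 0.27, for NCL, and 4 members had an unadjusted p under 0.05, against 8.62% of all genes. Fold changes were smaller for 32 of the 42. Without scrambled replicate 2, in contrast, 16 members were called, all higher, with a median of 0.37. That setting called 10.1% of all genes, and 24 members reached 0.05 unadjusted, against 29.8% of all genes. It kept number 2 in the siRNA groups alone, so number and group were not balanced. Leaving out scrambled replicate 1 or 3 unbalanced them likewise, with that number left in the siRNA groups alone. The part of this imbalance in the fold changes was not tested. Number 2 was the highest library in all 3 groups for 21 of the 42 members (50%, against 8.17% of all genes). Without scrambled replicate 3, 0 were called (0.134% of all genes) and the median was 0.14. In that setting 3 had an unadjusted p under 0.05 (7.14%, against 15% of all genes). Above 0 were 34 (81%, against 48.5% of all genes). Scrambled replicate 2 was the highest scrambled library for 34 of the 42 members (81.0%, against 34.5% of all genes).

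**Figure D2:**
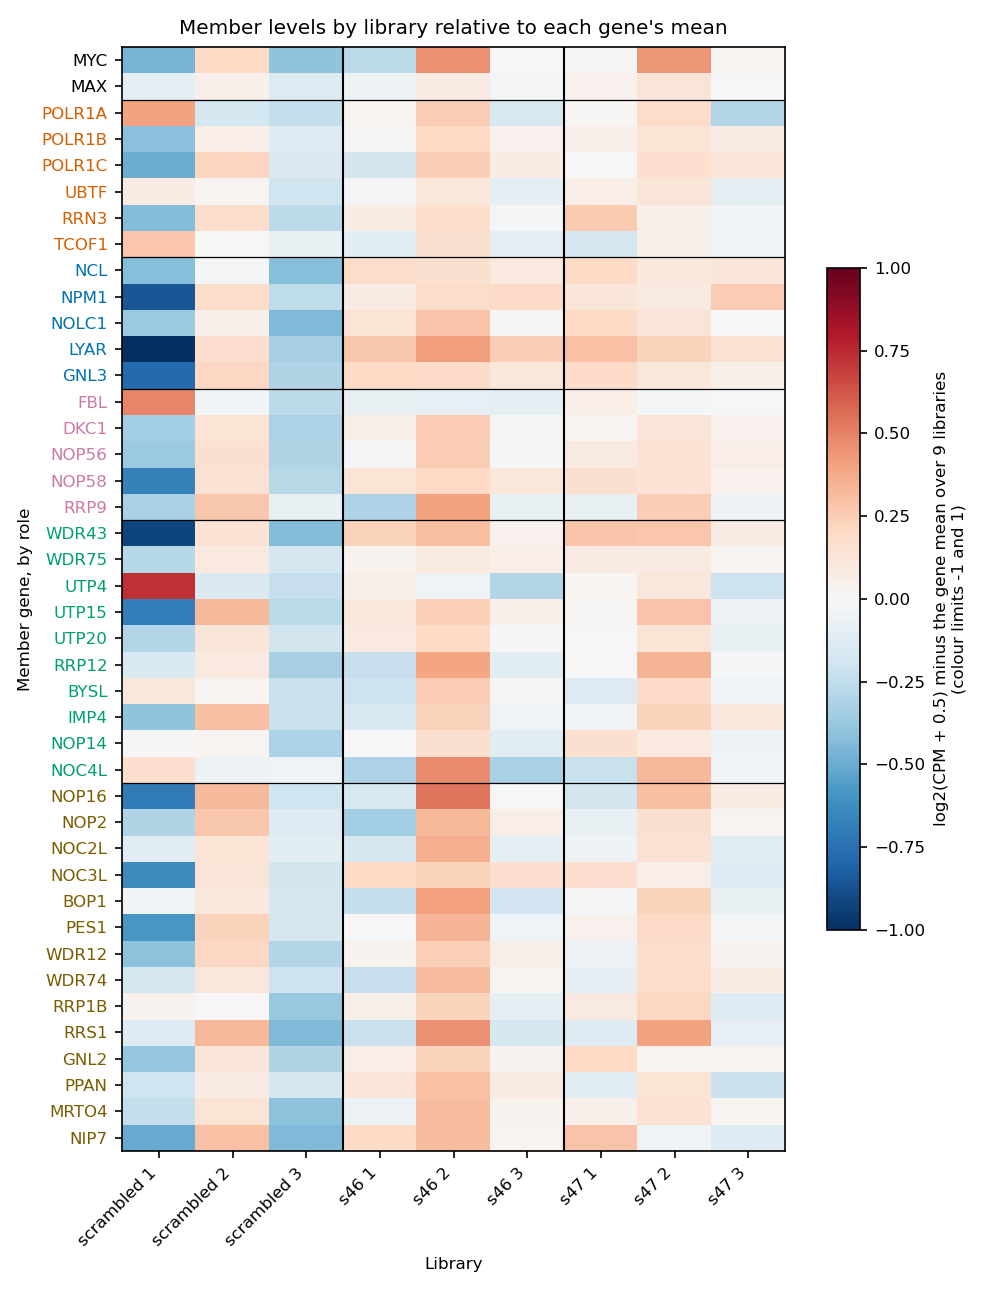
Heat map of the 42 members (vertical axis, grouped and coloured by role) in the 9 libraries (horizontal axis); colour is log2(CPM + 0.5) minus the gene's mean over the libraries. The columns of scrambled replicates 1 and 3 are mostly blue and that of scrambled replicate 2 mostly pale red, while POLR1A, TCOF1, FBL and UTP4 are red in scrambled replicate 1.

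MYC itself (ENSG00000136997.15, chromosome 8, 127735434 to 127741434, GRCh38) measured 244.9, 387.6 and 255.2 CPM in scrambled replicates 1 to 3. It measured 281.7, 465.4 and 337.1 CPM with s46 and 340.0, 458.8 and 344.5 CPM with s47. The groups overlapped, since scrambled replicate 2 lay above 4 of the 6 siRNA libraries. Those 4 bore the numbers 1 and 3, and at each number both siRNA libraries exceeded the scrambled one. Whether the number pairs the samples is not stated in the labels. The log2 fold change was 0.33 ± 0.19 (SE, 95% interval -0.08 to 0.73, edgeR adjusted p 0.366), and 0.21 without scrambled replicate 1. With s46 alone it was 0.29 and with s47 alone 0.37.

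MAX, the partner through which MYC binds DNA, measured 97.9, 108.8 and 95.3 CPM with scrambled siRNA, 101.5, 110.9 and 103.5 with s46 and 108.4, 114.9 and 105.1 with s47. The groups overlapped. Its log2 fold change was 0.09 ± 0.09 (SE, interval -0.11 to 0.30, edgeR adjusted p 0.61).

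The nucleolar scaffold and chaperone proteins were the role with the highest median, 0.40 over 5 genes, all above 0 and all with an interval above 0, although none passed the adjusted threshold. NCL (chromosome 2, 231453531 to 231483641) was the only member whose 6 siRNA libraries all exceeded all 3 scrambled ones, 1 of 42 members against 4.47% of all genes; the reverse held for 0 members and 3.65% of all genes. Its levels were 632.9, 841.4 and 630.2 CPM with scrambled siRNA, 964.1, 945.8 and 905.6 with s46 and 975.8, 915.1 and 920.5 with s47. The log2 fold change was 0.42 ± 0.12 (SE, interval 0.16 to 0.68, edgeR adjusted p 0.153), and 0.35 (adjusted p 0.27) without scrambled replicate 1. It was 0.58 (adjusted p 0.0178) without scrambled replicate 2, where it was called.

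LYAR, a nucleolar zinc-finger protein, had the highest log2 fold change of the 42, 0.67 ± 0.26 (SE, interval 0.08 to 1.25, edgeR adjusted p 0.246). Its scrambled libraries spread widely, at 23.4, 73.0 and 51.4 CPM, while s46 gave 78.2, 86.8 and 77.1 CPM and s47 79.7, 75.9 and 72.1. A single siRNA library, s47 replicate 3, lay below the highest scrambled one. Without scrambled replicate 1, the lowest library, the log2 fold change was 0.33.

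NPM1 measured 649.4, 1335 and 986.8 CPM with scrambled siRNA, 1240, 1334 and 1337 with s46 and 1276, 1250 and 1399 with s47. Scrambled replicate 2 lay among the siRNA libraries, and the log2 fold change of 0.40 (edgeR adjusted p 0.27) was 0.17 without scrambled replicate 1. GNL3 followed the same order of scrambled libraries, at 161.3, 319.9 and 225.0 CPM against 288.7 to 317.3 CPM in the siRNA libraries, every one of which lay below scrambled replicate 2. Its log2 fold change was 0.38, and 0.17 without scrambled replicate 1. NOLC1, the lowest of this role at 0.36 ± 0.13 (SE, interval 0.09 to 0.64, edgeR adjusted p 0.213), measured 257.3, 345.8 and 245.5 CPM with scrambled siRNA. It measured 365.7, 404.9 and 336.3 CPM with s46 and 382.3, 364.1 and 332.2 with s47, so 4 of the 6 exceeded every scrambled library. All 5 genes of this role were called without scrambled replicate 2 (edgeR adjusted p 0.0178 to 0.0274), a setting that called 10.1% of all genes and kept number 2 in the siRNA groups alone. Without scrambled replicate 1, a setting that kept number 1 in the siRNA groups alone, 0 of the 5 were called. Of the 5, 3 had an unadjusted p under 0.05, and the median was 0.30. NOLC1 was then at 0.30 (edgeR adjusted p 0.505).

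**Figure D3:**
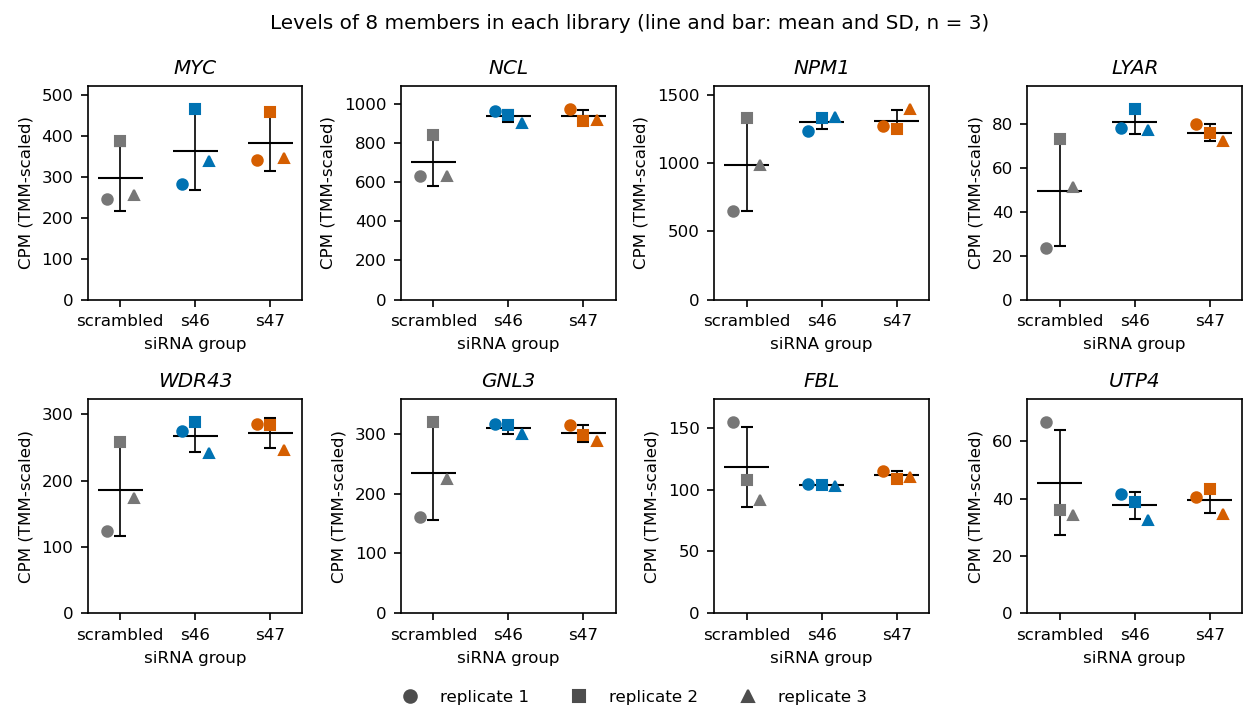
Levels of 8 members in CPM (vertical axes from 0) in each library of the 3 groups; symbols mark the replicate number, and line and bar give the mean and SD (n = 3). NCL is the member without overlap between scrambled and siRNA libraries, and FBL and UTP4 are highest in scrambled replicate 1.

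Among the 6 genes of RNA polymerase I and its factors, 4 were above 0 and the median was 0.12. RRN3, which recruits the polymerase to ribosomal DNA, was the highest. Its levels were 67.7, 103.7 and 76.3 CPM with scrambled siRNA, 96.6, 103.3 and 90.9 with s46 and 109.6, 94.7 and 89.6 with s47. Only s47 replicate 1 exceeded scrambled replicate 2, and the log2 fold change was 0.24 ± 0.13 (SE, interval -0.05 to 0.53, edgeR adjusted p 0.358). The subunits POLR1B and POLR1C had 0.23 and 0.19, and UBTF, which binds ribosomal DNA across its length, 0.05. With scrambled replicate 1 left out, RRN3 and POLR1B were at 0.11, POLR1C at 0.03 and UBTF at 0.10, so RRN3 was then no longer the highest.

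TCOF1, the nucleolar protein treacle, was the lowest of the role at -0.10 ± 0.11 (SE, interval -0.35 to 0.14, edgeR adjusted p 0.639). It measured 112, 91.9 and 87.5 CPM with scrambled siRNA, 85.7, 103 and 86.7 with s46 and 81.8, 95.4 and 90.0 with s47. Scrambled replicate 1 was its highest library, and without it the value was 0.01. POLR1A had -0.01, and 0.23 without scrambled replicate 1.

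The snoRNP proteins had a median of 0.24 over 5 genes, with 4 above 0. NOP58, a core protein of box C/D snoRNPs, measured 141.8, 251.7 and 186.7 CPM with scrambled siRNA, 248.9, 260.9 and 244.9 with s46 and 253.7, 250.6 and 234.0 with s47. Scrambled replicate 2 lay inside the siRNA range, and the log2 fold change was 0.36 ± 0.15 (SE, interval 0.04 to 0.68, edgeR adjusted p 0.246). It was 0.18 without scrambled replicate 1, where the median of the role was 0.14. DKC1, the pseudouridine synthase dyskerin, had 0.25 and NOP56, the partner of NOP58, 0.24.

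FBL, the methyltransferase fibrillarin of the same particles, went the other way at -0.14 ± 0.14 (SE, interval -0.43 to 0.16, edgeR adjusted p 0.61). Its levels were 154.6, 108.1 and 91.9 CPM with scrambled siRNA, 104.3, 104.1 and 102.8 with s46 and 115.3, 109.1 and 110.3 with s47. Scrambled replicate 1 alone lay above every siRNA library, and without it the log2 fold change was 0.11.

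Small subunit assembly factors had a median of 0.15 over 10 genes, 8 of them above 0. WDR43, a subunit of the early processome, measured 123.5, 258.8 and 173.1 CPM with scrambled siRNA, 274.4, 288.0 and 241.4 with s46 and 285.7, 283.5 and 246.2 with s47. Of the 6 siRNA libraries 4 exceeded every scrambled library. The log2 fold change was 0.54 ± 0.18 (SE, interval 0.15 to 0.94, edgeR adjusted p 0.208), 0.32 without scrambled replicate 1 and 0.87 (adjusted p 0.0135) without scrambled replicate 2.

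UTP4, another early processome subunit, was the lowest of the 42 at -0.24 ± 0.19 (SE, interval -0.65 to 0.17, edgeR adjusted p 0.507). It stood at 66.6 CPM in scrambled replicate 1 and at 36.1 and 34.1 in the other scrambled libraries, against 32.5 to 43.3 in the siRNA libraries. Without scrambled replicate 1 the value was 0.13. The other 8 genes of this role lay between -0.01 (NOC4L) and 0.27 (UTP15), which were at 0.06 each without scrambled replicate 1.

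Large subunit assembly factors were all above 0, 14 of 14, with a median of 0.19 and a narrow span. NOC3L, a factor of early large-subunit particles, was the highest. Its levels were 30.2, 51.8 and 41.5 CPM with scrambled siRNA, 54.3, 55.2 and 53.0 with s46 and 53.2, 49.5 and 43.1 with s47. All 3 s46 libraries exceeded every scrambled library, and s47 replicates 2 and 3 did not; the log2 fold change was 0.32 ± 0.15 (SE, interval 0.00 to 0.64, edgeR adjusted p 0.286), and 0.14 without scrambled replicate 1.

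NOC2L, a nucleolar partner of NOC3L, was the lowest of the large subunit factors at 0.05 ± 0.13 (SE, interval -0.23 to 0.34, edgeR adjusted p 0.858). It measured 70.4, 83.4 and 70.1 CPM with scrambled siRNA, 67.6, 97.9 and 71.3 with s46 and 73.4, 84.5 and 69.7 with s47. The groups overlapped throughout. The trio BOP1, PES1 and WDR12, which act together in maturing the large subunit, had 0.07, 0.23 and 0.22, and the GTPase GNL2 had 0.27. These 4 were at 0.07, 0.05, 0.11 and 0.18 without scrambled replicate 1. Without scrambled replicate 1, 13 of the 14 large subunit factors were above 0 and their median was 0.10.

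**Figure D4:**
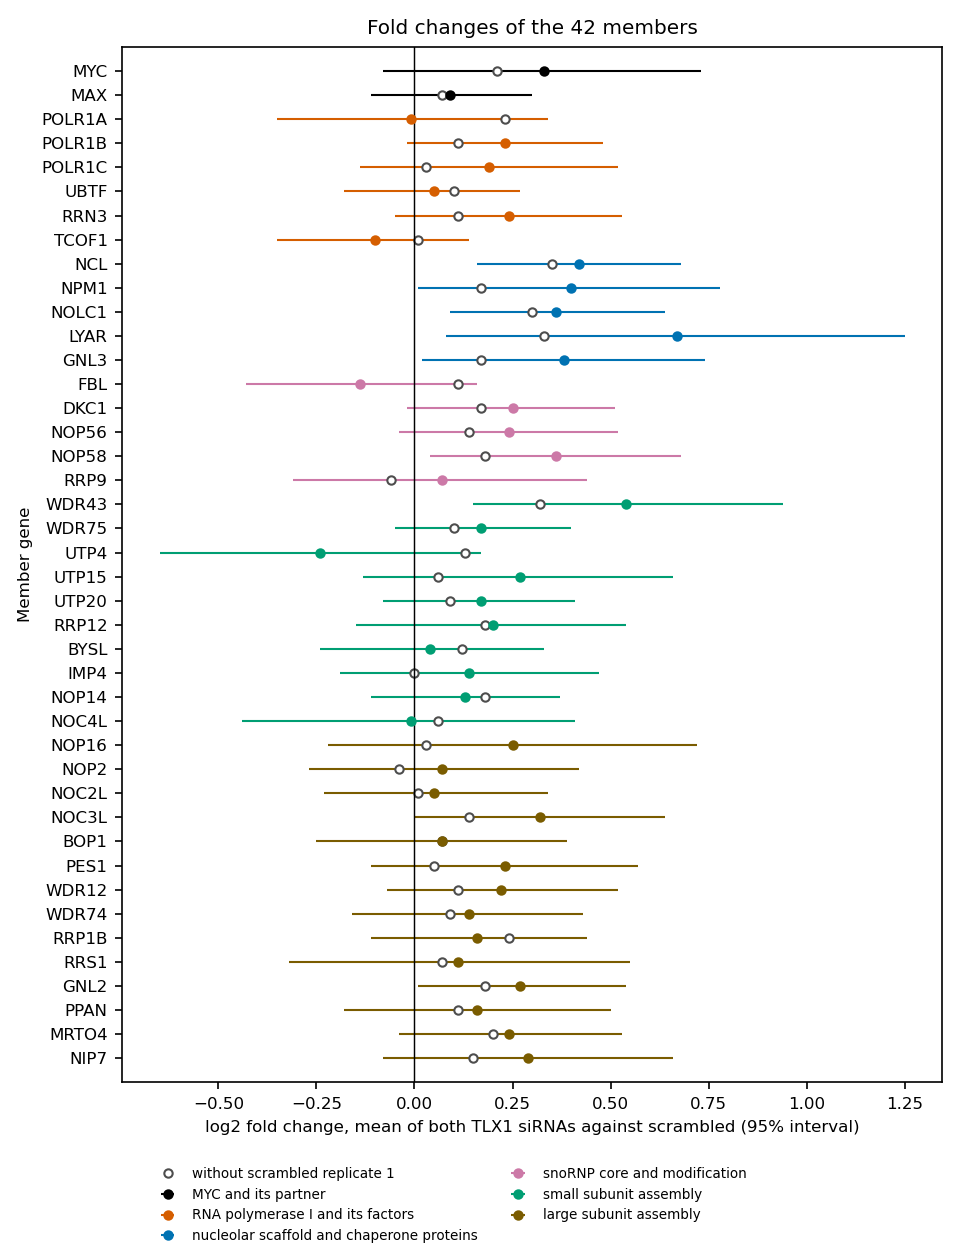
Log2 fold change of each member for the average of s46 and s47 against scrambled siRNA (filled points, bars are 95% intervals, coloured by role), with the value without scrambled replicate 1 as open points. Most filled points lie right of 0, and the open points lie nearer to 0 for most members.

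Scrambled replicate 1 was the lowest of the 9 libraries for 22 members, including MYC, NPM1, LYAR and WDR43 (52.4%, against 29% of all genes). It was the highest for 4, POLR1A, TCOF1, FBL and UTP4 (9.52%, against 31.2% of all genes). The sign of the log2 fold change differed without it for 7 members: those 4 and RRP9, NOC4L and NOP2. These are the libraries' levels; the part of this library's read composition in them was not tested.

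Each siRNA was also set against the scrambled libraries, which both contrasts share. With s46, 0 members were called (0.174% of all genes) and 38 of 42 were above 0, with a median of 0.22; 6 had an unadjusted p under 0.05, against 11.9% of all genes. With s47, 0 were called (0.33% of all genes) and 38 were above 0, with a median of 0.20; 3 had an unadjusted p under 0.05, against 12.3% of all genes. DESeq2 also called 0 in both. Leaving out scrambled replicate 1 gave medians of 0.13 with s46 and 0.11 with s47, with 3 and 2 members at an unadjusted p under 0.05 (6.75% and 7.52% of all genes). The lowest edgeR adjusted p was that of NCL, 0.349 with s46 and 0.319 with s47.

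The direct comparison of s46 with s47 shares no control library. Its differences ran from -0.10 (FBL) to 0.24 (PPAN) on the log2 scale, with a median of 0.00, 23 above 0 (50.3% of all genes) and 0 called (0% of all genes). None had an unadjusted p under 0.05, against 0.703% of all genes, and DESeq2 called 0. The 95% intervals reached from -0.56 to 0.74, both bounds those of LYAR, so a 2-fold difference between the siRNAs lay outside the interval of every member. MYC differed by -0.08 (interval -0.54 to 0.39).

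Other genes of the pathway were taken from lists chosen by function, 229 genes of which 224 were tested. For the mean of both siRNAs 3 of them rose, ODC1, SHQ1 and RUVBL2 (0.411% of all genes rose), and 0 fell (0.156% of all genes). ODC1, the first enzyme of polyamine synthesis and a MYC target, was 1 of 36 MYC targets outside the nucleolus. Of the 36, 29 were above 0 (median 0.24, and 0.14 without scrambled replicate 1). An unadjusted edgeR p under 0.05 was found for 12 (33.3%, against 17.8% of all genes). Without scrambled replicate 1 it was found for 9 (25%, against 8.62% of all genes). The 6 siRNA libraries all exceeded the 3 scrambled ones for 7 (19.4%, against 4.47% of all genes). The reverse held for 0 (3.65% of all genes). DESeq2 called 3 of the 36 higher, against 253 of all 16072 genes. That list ran from SLC7A5, an amino acid transporter, at -0.32 (0.09 without scrambled replicate 1) to TERT, the catalytic subunit of telomerase, at 0.87. ODC1 rose from 99.4, 152.9 and 134.1 CPM with scrambled siRNA to 192.9 to 235.2 CPM, with no overlap (log2 fold change 0.73 ± 0.14 SE, edgeR adjusted p 0.0299). ODC1 no longer passed when scrambled replicate 3 was left out (edgeR adjusted p 0.116), nor without any 1 of the s46 libraries (0.0716 to 0.0922). It was also lost without s47 replicate 1 or 3 (0.0863 and 0.0956). It passed without scrambled replicate 1 (0.0216) and without s47 replicate 2 (0.0446). Without scrambled replicate 2, a setting that called 10.1% of all genes, it passed too (0.0113).

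SHQ1 and RUVBL2 belong to the assembly of snoRNPs: SHQ1 is a chaperone of dyskerin, the product of DKC1, and RUVBL2 an ATPase of the complex that builds box C/D particles. SHQ1 measured 301.8, 303.9 and 281.6 CPM with scrambled siRNA and 408.5 to 528.3 CPM in the 6 TLX1 siRNA libraries. The increase was 0.61 ± 0.12 on the log2 scale (SE, edgeR adjusted p 0.0441). RUVBL2 measured 65.1, 72.7 and 62.8 CPM with scrambled siRNA, 91.1, 122.0 and 90.7 with s46 and 101.3, 113.2 and 96.9 with s47. It rose by 0.62 ± 0.12 (SE, edgeR adjusted p 0.0426). Neither gene's groups overlapped, and the values were 0.62 and 0.60 without scrambled replicate 1. Neither passed when scrambled replicate 3 was left out (both at an adjusted p of 0.159) or any 1 of the 6 siRNA libraries (0.0596 to 0.107 for SHQ1, 0.0633 to 0.0978 for RUVBL2). The 15 genes of this list had a median of 0.21, with 13 above 0 (0.14 without scrambled replicate 1). The lowest was NOL3, at -0.84 (edgeR adjusted p 0.274), which is listed here although it is an apoptosis repressor and not a snoRNP factor. Of the 15, 7 had an unadjusted edgeR p under 0.05 (46.7%, against 17.8% of all genes). Without scrambled replicate 1 there were 3 such genes (20%, against 8.62% of all genes). The 6 siRNA libraries all exceeded the 3 scrambled ones for 4 of the 15 (26.7%, against 4.47% of all genes). The reverse held for 0 (3.65% of all genes). DESeq2 called 2 of the 15 higher.

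Assembly factors that are not members were mostly above 0 too. Of 52 small subunit factors 47 were above 0 (median 0.21), from TBL3 at -0.35 to ESF1 at 0.49. By edgeR and DESeq2 0 were called, and 16 reached 0.05 unadjusted by edgeR (30.8%, against 17.8% of all genes). Without scrambled replicate 1 there were 3 (5.77%, against 8.62% of all genes). Of 49 large subunit factors 44 were above 0 (median 0.19), from PELP1 at -0.32 to NSA2 at 0.54. By edgeR and DESeq2 0 were called, and 10 reached 0.05 unadjusted by edgeR (20.4%, against 17.8% of all genes). Without scrambled replicate 1 there were 2 (4.08%, against 8.62% of all genes). Both medians were 0.11 without scrambled replicate 1, and the extremes lay nearer to 0: TBL3 was at -0.08, ESF1 at 0.28, PELP1 at 0.02 and NSA2 at 0.24. Exosome and other processing nucleases had a median of 0.18 over 24 genes, 23 above 0, from ERI1 at -0.06 to XRN2 at 0.40. Of these 0 were called by edgeR or DESeq2, and 5 had an unadjusted edgeR p under 0.05 (20.8%, against 17.8% of all genes). Without scrambled replicate 1 there were 2 (8.33%, against 8.62% of all genes). The median was 0.08 without scrambled replicate 1, with ERI1 at -0.14 and XRN2 at 0.24.

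Other RNA polymerase I genes had a median of 0.16 over 18. By edgeR 0 were called, and DESeq2 called 1 lower, against 205 of all 16072 genes. An unadjusted edgeR p under 0.05 was found for 3 (16.7%, against 17.8% of all genes). Without scrambled replicate 1 it was found for 1 (5.56%, against 8.62% of all genes). BAZ2A, a subunit of the complex that silences ribosomal DNA, was the lowest at -0.79 (edgeR adjusted p 0.186), and POLR2K, a subunit shared by the polymerases, the highest at 0.39. BAZ2A stood at 126.5 CPM in scrambled replicate 1 and at 40.7 to 60.1 CPM in the other 8 libraries, and its value was -0.27 without that library. Without it POLR2K was at 0.19 and the median of the list at 0.07. RNA polymerase III genes had a median of 0.06 over 22, and POLR3G was the highest at 0.69 (edgeR adjusted p 0.0785); without scrambled replicate 1 the median was 0.01 and POLR3G at 0.61. By edgeR 0 of them were called and 4 reached 0.05 unadjusted (18.2%, against 17.8% of all genes). Without scrambled replicate 1 there were 3 (13.6%, against 8.62% of all genes). DESeq2 called 3 of the 22 higher, against 253 of all 16072 genes.

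Other members of the MYC network had a median of -0.17 over 8 tested genes of 11. Several of them compete with MYC for MAX or for E-boxes. By edgeR and DESeq2 0 were called, and 3 had an unadjusted edgeR p under 0.05 (37.5%, against 17.8% of all genes). Without scrambled replicate 1 there were 0, against 8.62% of all genes. MLXIP, a glucose-responsive relative, was the lowest at -0.88 (edgeR adjusted p 0.233) and MXI1, a MAX-binding repressor, the highest at 0.21 (0.06 without scrambled replicate 1). MLXIP measured 127.2 CPM in scrambled replicate 1 and 32.6 to 47.9 CPM in the other 8 libraries, and without that library its value was -0.17. The median of the list was then -0.07.

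Many snoRNAs are cut from introns of ribosome biogenesis genes, so the same loci hold a further readout. GENCODE 29 places 26 snoRNA genes inside 8 members on the same strand: NCL, GNL3, DKC1, NOP56, NOP58, WDR43, PPAN and POLR1C. Of these 11 passed the filter on low counts and 8 had no read in any library. Of the 11, edgeR called 0 (lowest adjusted p 0.32; 0 reached 0.05 unadjusted), as did DESeq2; 8 were above 0, with a median of 0.27 and none without overlap between the groups. When scrambled replicate 1 was left out, 5 of the 11 were above 0 and the median was -0.04, so the direction rested on that library. The range ran from SNORD53 at -0.14 ± 0.30 (SE) to SNORD92 at 0.85 ± 0.48 (SE), both inside WDR43 and both under 2 CPM. Reads of the unspliced host can fall on a snoRNA, and their part was not tested.

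Members with and without an E-box in the promoter window were set side by side. The median log2 fold change was 0.17 over the 15 with an E-box and 0.22 over the 19 without, and 13 and 17 of them were above 0. Without scrambled replicate 1 the medians were 0.13 and 0.11. The word GCAGTAC, chosen with earlier results of these data known, was looked for on the sense strand of the members' 3′ UTRs in GENCODE 29. None of the 42 members carried it, against 5.49% of 11040 tested protein-coding genes. The members' longest 3′ UTRs had a median of 520 bases, against 1313 for those genes.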

How the data were processed

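The deposited values are raw counts of reads on each gene in 9 libraries. The submitters' processing notes name GRCh38; the aligner, counter and annotation were not given in the sources used here. Libraries were stranded total RNA with ribosomal RNA removed, per the labels' protocols. The sense count column was used, and lines that name no gene (unmapped, multimapping, no feature, ambiguous) were left out. Reads in genes made up 39.92% to 59.9% of each library. Of 58096 gene IDs, 57488 matched GENCODE 29.

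Genes were kept by filterByExpr (minimum count 10), TMM-scaled and compared in edgeR 4.0.16 under R 4.3.3 (robust quasi-likelihood F test, 1 fit of all 9 libraries, group as the only term). The Benjamini-Hochberg adjustment took in all 16072 genes, with a threshold of 0.05. SEs and 95% intervals derive from the F statistics. The fit was also run on simulated counts. These held no effect of the replicate number and no outlying library, so that run does not show how the fit handles either. Members and lists were chosen with earlier results of these data known, so no test was made over a list. Members were named by role: MYC, MAX and each role's highest and lowest, with NCL, NPM1 and GNL3 added after their values were seen; of other lists, called genes and the extremes, 1 of which is not reported here. Alternatives were other scalings, no filter, DESeq2 1.42.0, unstranded counts, the replicate number as a block, and leaving out each library.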

Additional observations from a re-analysis of the deposited data

How the results depend on the processing

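For the mean of both siRNAs, edgeR called 876 genes without the filter on low counts and 2 of the members, and DESeq2 called 458 genes and 1 member. For s46 the counts were 14 genes with scaling by library totals, 384 genes and 1 member without the filter, and 196 genes with DESeq2. For s47 they were 432 genes and 1 member without the filter and 203 genes with DESeq2; s46 against s47 gave 3 genes without the filter. Leaving out 1 library gave 22 to 1650 genes and 0 to 16 members for the mean of both (median log2 fold change 0.11 to 0.37), 4 to 225 genes and 0 to 4 members for s46, and 4 to 275 genes and 0 to 4 members for s47 (median 0.11 to 0.39). With library totals, 34 members were above 0 (81%, against 37.9% of all genes), with a median of 0.13 against -0.09 over all genes. The cause of these differences was not tested.

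The labels do not say that the replicate number pairs the samples. Of 9 same-number pairs across groups 8 correlated in their deviations at 0.199 to 0.436 and 1, scrambled 2 with s47 2, at -0.03; since a pairing was taken only where every pair passed 0.1, the number was not used as one. As a hint from the data, each of the 9 libraries correlated best with a library of its own number in another group. With it as a replicate block, edgeR called 222 genes (1.38%) for the mean of both, 74 for s46 and 125 for s47, and 0 members. Members at an unadjusted p under 0.05 were then 16 (38.1%, against 22.6% of all genes), a larger excess than without the block; MYC was at 0.34 ± 0.09 (SE, edgeR adjusted p 0.11) and POLR1A at 0.00.

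The sign of several members and listed pathway genes depended on the setting. POLR1A was at 0.01 with DESeq2 size factors and with DESeq2, 0.02 without the filter and 0.04 with unstranded counts; NOC4L was at 0.01 and 0.03 under the last 2. With library totals, where the median of all genes was -0.09, UBTF and BYSL were at -0.02 and NOC2L at -0.01. Leaving out 1 library gave a range through 0 for POLR1A (-0.12 to 0.23), UBTF (-0.03 to 0.10), TCOF1 (-0.17 to 0.01), FBL (-0.28 to 0.11), RRP9 (-0.06 to 0.25), UTP4 (-0.41 to 0.13), BYSL (-0.04 to 0.12), NOC4L (-0.17 to 0.06), NOP2 (-0.04 to 0.26), NOC2L (-0.04 to 0.15), BOP1 (-0.05 to 0.14), RRS1 (-0.05 to 0.36), SLC7A5 (-0.55 to 0.09), PELP1 (-0.49 to 0.02) and ERI1 (-0.14 to 0.02). Members held 1870 (PPAN) to 311623 (NPM1) reads over the 9 libraries.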

Other observations

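MYC was highest in the library numbered 2 in each of the 3 groups (387.6, 465.4 and 458.8 CPM). The same held for 21 of the 42 members (50%), against 8.17% of all genes tested. RRS1, a large subunit factor, measured 42.4, 46.4 and 44.6 CPM in those libraries and 24.7 to 31.8 CPM in the other 6. NOP16, another large subunit factor, measured 38.7, 44.8 and 38.1 CPM there and 18.8 to 32.5 CPM elsewhere. The labels do not say what the number stands for.

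The repressor MXD3, a MAX partner, lay at 28.5 to 33.6 CPM in the scrambled libraries and 16.2 to 27.2 CPM in the TLX1 siRNA libraries, without overlap; this held for 3.65% of all genes. Its log2 fold change was -0.47 ± 0.17 (SE, edgeR adjusted p 0.223). TERT, the telomerase subunit and a MYC target, lay at 0.775 to 1.34 CPM and 1.54 to 2.56 CPM in the same groups. It too showed no overlap, being higher with TLX1 siRNA, as were 4.47% of all genes. The log2 fold change of TERT was 0.87 ± 0.28 (SE, edgeR adjusted p 0.188). MXD3 was singled out after its values were seen.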
